A study of Mus musculus with 6 samples.

Results

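The genes described here are 32 genes of glycolysis and of the transcriptional response to low oxygen, chosen by symbol from the 27998 genes listed in the deposited tables, and all 32 were found. They comprise 2 HIF transcription factors, 2 HIF prolyl hydroxylases, 9 enzymes of upper glycolysis, 2 regulators of phosphofructokinase, 5 enzymes of lower glycolysis, 3 enzymes that handle pyruvate and lactate, 4 genes of mitophagy and growth arrest, and 5 other hypoxia-induced genes. Single cells came from the brains of C57BL/6 mice aged 6 to 8 weeks, 24 h after middle cerebral artery occlusion (MCAO, a model of ischemic stroke in which an artery that feeds the forebrain is blocked) or after a sham operation. There were 3 libraries per group, made by papain digestion, myelin removal on Percoll and droplet capture of 3' ends, so that enzymatic digestion was common to both groups. The labels do not say whether a library is a separate animal, how long the artery was blocked or which part of the brain was taken; p-values therefore measure the spread between these libraries, which may be technical. The question was which cell classes raised or lowered these genes after MCAO.

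Glycolysis splits glucose into pyruvate and yields ATP without oxygen. When oxygen is short, prolyl hydroxylases stop marking the HIF alpha subunits for destruction, and HIF dimers bind DNA and raise the genes of glucose uptake, glycolysis and lactate formation, together with genes such as Bnip3 and Adm. HIF1A is regulated mainly at the level of its protein, which RNA counts do not show, although its messenger RNA can rise in inflamed myeloid cells. In the brain, astrocytes are known as a strongly glycolytic cell type, and macrophages shift towards glycolysis when they are activated.

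The promoters of 4 of these genes are shown because the genes moved apart after MCAO. Ldha rose in most cell classes, and Ldhb was called lower in 4 of 13 and higher in none. Hk2 was highest in microglia and lower there after MCAO, and Mif rose most in myeloid cells. Each run is the 250 bases before the start site, 5' to 3' on the gene's strand, from RefSeq on GRCm38.p6. Capitals mark the letters ACGTG or GCGTG, the core bound by HIF dimers, searched on both strands, so that CACGT and CACGC are the same letters on the opposite strand and CACGTG counts on both. The regions are chr7:46845554-46845803 (plus strand) for Ldha, chr6:142507958-142508207 (minus strand) for Ldhb, chr6:82774455-82774704 (minus strand) for Hk2 and chr10:75860278-75860527 (minus strand) for Mif.
Ldha: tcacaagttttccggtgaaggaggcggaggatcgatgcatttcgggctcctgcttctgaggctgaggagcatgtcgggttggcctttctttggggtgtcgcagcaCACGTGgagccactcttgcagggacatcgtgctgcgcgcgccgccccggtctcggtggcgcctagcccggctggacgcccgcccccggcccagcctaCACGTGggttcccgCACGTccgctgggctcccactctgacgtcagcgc
Ldhb: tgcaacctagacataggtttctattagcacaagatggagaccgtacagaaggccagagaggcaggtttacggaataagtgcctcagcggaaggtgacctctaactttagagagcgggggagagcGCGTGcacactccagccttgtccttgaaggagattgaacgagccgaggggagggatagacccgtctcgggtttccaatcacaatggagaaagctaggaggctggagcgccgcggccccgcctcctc
Hk2: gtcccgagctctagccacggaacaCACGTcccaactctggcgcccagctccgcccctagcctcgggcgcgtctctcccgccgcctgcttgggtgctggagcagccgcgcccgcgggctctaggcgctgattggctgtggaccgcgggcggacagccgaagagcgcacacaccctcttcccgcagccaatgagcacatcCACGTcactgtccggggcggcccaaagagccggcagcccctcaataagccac
Mif: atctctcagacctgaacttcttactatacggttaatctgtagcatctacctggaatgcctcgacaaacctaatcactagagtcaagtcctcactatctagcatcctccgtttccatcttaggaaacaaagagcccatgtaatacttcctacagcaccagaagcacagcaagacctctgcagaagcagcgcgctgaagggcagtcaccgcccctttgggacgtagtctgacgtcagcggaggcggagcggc
The Ldha run held 5 matches, that of Ldhb 1, that of Hk2 2 and that of Mif 0. With the 50 bases after the start, which are not printed, Ldha had 7 and Mif 1, while Ldhb and Hk2 stayed at 1 and 2. Of the 32 genes, 29 had windows of 300 bases in the RefSeq table, 250 before and 50 after the start, and Epas1, Bnip3l and Ndrg1 had none. At least 1 match was present in 35 of the 42 windows of these genes (83.3%), against 14380 of all 32851 windows (43.8%). In all, 27 of the 29 genes had a match in a window, beside 46.7% of all symbols in the table, among them genes that rose, such as Ldha, and genes that fell in microglia, such as Bnip3 and Pdk1. A match describes the letters of the window and not a bound site.

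Of 58528 barcodes, 52655 were kept, 7417 to 10377 per library, with medians of 2336 to 3398 UMIs (unique molecular identifiers, each counting 1 captured transcript) per cell, and the MCAO libraries were the deeper ones. Libraries shared 1952 of 56538 distinct barcodes (3.45%). Cell classes were named from marker genes, and a class name stands for cells like that class; 13 classes had at least 20 cells in every library. Microglia numbered 1608 to 2185 cells per library, endothelial cells 2931 to 4689 and astrocytes 264 to 711. Monocyte-derived cells rose from 42 to 52 cells per sham library to 377 to 519 per MCAO library. Microglial markers were lower after MCAO in microglia (14 of 15 fell), and cells of the 2 groups lay largely in different clusters: cluster 1 held 5665 sham and 80 MCAO microglia, and clusters 7, 9 and 10 held 2119, 1988 and 1757 MCAO microglia against 241, 8 and 21 from sham. The genes described here and the related lists were left out of the genes used for clustering.

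In the sum over all kept cells of a library, 25 of the 32 genes passed the threshold (19 rose and 6 fell; edgeR quasi-likelihood test, Benjamini-Hochberg adjusted p under 0.05), beside 57.7% of all genes tested (28.7% higher and 29% lower). A change in cell mix and a change per cell cannot be told apart in that sum, and the classes were therefore examined singly.

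Microglia, the resident macrophages of the brain, raised most of the enzymes that turn glucose into lactate and lowered several hypoxia-induced regulators. After MCAO 17 of the 31 genes tested rose and 8 fell, beside 61.5% of all genes tested that were called (29.8% higher and 31.7% lower). The median log2 change of the 31 genes was 0.71, against -0.05 over all genes tested. Egln3 had too few UMIs to be tested. All 5 enzymes of lower glycolysis rose, as did 6 of 9 enzymes of upper glycolysis.

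Pkm, which encodes pyruvate kinase, the enzyme of the last ATP-yielding step, changed most among these genes in microglia (chr9:59656368-59679375, plus strand, GRCm38). It measured 257, 252 and 267 CPM (the gene's UMIs per 1e+06 UMIs of the class in that library, scaled by TMM) in the sham libraries and 1401, 1320 and 1421 CPM in the MCAO libraries. Every MCAO library lay above every sham library, by a log2 change of 2.42 ± 0.05 (SE, n = 3 against 3; edgeR adjusted p = 5.02e-18), or 5.34-fold. After each cell was thinned to 1000 UMIs, the share of microglia with a Pkm UMI was 22.1% ± 1.09 in sham and 59.5% ± 0.84 in MCAO (SD, n = 3). Without thinning the shares were 45.6% and 86.0%. Every cell of the class had at least 1000 UMIs, so that thinning left out none.

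Gapdh, the enzyme that makes NADH in the middle of the pathway, measured 413, 419 and 369 CPM in sham microglia and 1060, 1096 and 1177 CPM after MCAO. The groups did not overlap, and the log2 change was 1.47 ± 0.06 (edgeR adjusted p = 3.32e-14). Pgk1, phosphoglycerate kinase, measured 33.4, 49.5 and 53.7 CPM in sham and 130, 163 and 131 CPM in MCAO libraries, a log2 change of 1.63 ± 0.20 (edgeR adjusted p = 0.00151). The groups did not overlap, but sham library 1 was the lowest sham library and MCAO library 2 the highest MCAO library for Pgk1 in 10 of the 13 classes, which held together for no other gene in more than 5 classes. The table also lists near-identical copies of Pgk1 and Eno1 (Pgk1-rs7 and Eno1b), between which counting could have split UMIs. Pgam1 and Eno1, phosphoglycerate mutase and enolase, rose by 0.88 ± 0.05 and 0.86 ± 0.05 on the log2 scale.

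In upper glycolysis, Aldoa, the main aldolase outside liver and brain, measured 352, 369 and 363 CPM in sham microglia and 738, 749 and 749 CPM after MCAO. Groups did not overlap (log2 change 1.04 ± 0.05, edgeR adjusted p = 2.47e-13). Tpi1, triose phosphate isomerase, rose from a mean of 99.2 to 192 CPM (log2 change 0.95 ± 0.06) and Gpi1, glucose phosphate isomerase, by 0.63 ± 0.05 on the log2 scale. The platelet-type phosphofructokinase Pfkp and the muscle-type Pfkm rose from low levels, 4.25 to 11.4 CPM and 4.18 to 7.82 CPM, which were 3.42% and 4.74% (Pfkp) and 3.15% and 5.61% (Pfkm) of the level in the class where each was highest. Hk1 and the liver-type Pfkl did not pass the threshold, with log2 changes of -0.06 ± 0.13 and 0.11 ± 0.07.

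Hk2, the hexokinase that commits glucose to the pathway and is often induced by HIF, fell in microglia. It was highest in microglia of all 13 classes in both groups. Hk2 measured 496, 415 and 405 CPM in sham and 261, 257 and 336 CPM in MCAO libraries. The MCAO libraries were all below the sham libraries, with a log2 change of -0.62 ± 0.14 (edgeR adjusted p = 0.0141). The thinned share of microglia with an Hk2 UMI was 35.0% ± 3.21 in sham and 23.8% ± 2.30 in MCAO (SD, n = 3), and 62.9% and 56.4% without thinning. Without cluster 9 the change of Hk2 was -0.29 and did not pass the threshold (edgeR adjusted p = 0.138). Among the regulators of phosphofructokinase, Pfkfb3 rose (34.1 to 55.9 CPM, log2 change 0.71 ± 0.09) and Pfkfb4 fell (42.6 to 19.9 CPM, log2 change -1.09 ± 0.11).

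The lactate dehydrogenase subunits moved apart. Ldha, the subunit of the form that favours lactate production, measured 217, 236 and 239 CPM in sham and 602, 627 and 606 CPM in MCAO microglia (log2 change 1.41 ± 0.05, edgeR adjusted p = 1.14e-14). Ldhb, the subunit of the form that favours lactate use, measured 692, 653 and 694 CPM in sham and 265, 291 and 269 CPM in MCAO libraries (log2 change -1.30 ± 0.05, edgeR adjusted p = 4e-14). Neither gene's groups overlapped. Microglia thus held 0.314, 0.362 and 0.345 Ldha UMIs per Ldhb UMI in the sham libraries and 2.27, 2.15 and 2.26 in the MCAO libraries. Pdk1, the kinase that shuts pyruvate out of the mitochondrial cycle and a known HIF target, fell from 73.7, 65.6 and 66.1 CPM to 27.5, 27.0 and 28.6 CPM without overlap (log2 change -1.31 ± 0.08, edgeR adjusted p = 3.93e-11).

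Mif, a cytokine and a known HIF target, measured 163, 174 and 164 CPM in sham and 611, 633 and 623 CPM in MCAO microglia. The groups did not overlap (log2 change 1.90 ± 0.05, edgeR adjusted p = 9.42e-17), and the thinned share of microglia with a Mif UMI was 15.1% ± 0.88 in sham and 36.8% ± 0.41 in MCAO (SD, n = 3; 32.0% and 70.7% without thinning). Hif1a rose by 0.71 ± 0.07 on the log2 scale, from 52.4 to 85.5 CPM, while Epas1, which encodes HIF2A, did not pass the threshold (-0.17 ± 0.13). The hypoxia-induced genes of mitophagy and growth arrest did not follow the enzymes: Bnip3, Bnip3l and Ddit4 fell by 0.41 ± 0.10, 0.54 ± 0.05 and 0.41 ± 0.05 on the log2 scale, and Ndrg1 did not pass (0.04 ± 0.11). With clusters 1 and 7 only, the calls of Bnip3 and Ankrd37 were lost (-0.29 and -0.52, edgeR adjusted p = 0.0611 and 0.0568) and Ddit4 turned to 0.67. Ankrd37 fell by 0.69 ± 0.16, to 8.79% of its level in the highest class, P4ha1 and Egln1 did not pass (-0.06 ± 0.07 and -0.24 ± 0.20), and Adm and P4ha2 rose by 0.87 ± 0.22 and 1.30 ± 0.31 from levels of 3.70% and 3.32% of those in the highest class.

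Aldoc, the aldolase typical of astrocytes, also rose in microglia, from 35.7, 38.6 and 48.6 CPM to 105, 97.9 and 72.4 CPM (log2 change 1.16 ± 0.20, edgeR adjusted p = 0.00377). These levels were 0.597% and 1.41% of those in astrocytes. In the same microglial sums 9 of 11 astrocyte markers rose and 1 fell, with medians of 1.12 to 1.31% of the astrocyte level in sham and 1.85 to 2.45% in MCAO libraries, and their summed level was 260 to 285 CPM and 240 to 297 CPM. None of the 11 markers was at 0 in any library. The part of astrocyte RNA in the rise of Aldoc was not tested. Of 11 tested markers of monocyte-derived cells 8 rose as well, to 199 to 266 CPM in sum from 94.5 to 119 CPM.

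The clusters of microglia differed in these genes, which is given as a description without a test. Pkm averaged 257 ± 14.0 CPM in the sham cells of cluster 1 (SD over 3 libraries), 565 ± 35.4 CPM in the MCAO cells of cluster 7, 1279 ± 12.8 CPM in those of cluster 10 (led by Ccl12 and Ccl4) and 1906 ± 72.1 CPM in those of cluster 9 (led by Mmp12). Hk2 ran the other way, at 461 ± 40.0, 410 ± 54.3, 300 ± 45.9 and 131 ± 19.8 CPM, and so did Ldhb, at 727 ± 20.3, 430 ± 37.2, 218 ± 3.3 and 170 ± 13.5 CPM. This order sets sham cells of 1 cluster beside MCAO cells of others. The sham cells of cluster 7 averaged 477 ± 39.7 CPM of Pkm, 435 ± 100 of Hk2 and 512 ± 78.5 of Ldhb. Between sham and MCAO cells of cluster 7 none of these 3 genes was called (log2 changes 0.18 ± 0.10, -0.15 ± 0.15 and -0.31 ± 0.10). Cluster 9 had the lowest microglial marker score of the class (0.39), with 11 of 15 microglial markers detected.

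Ddit4, an inhibitor of the growth kinase mTORC1 induced by hypoxia and by glucocorticoids, fell over the whole class but rose within clusters 1 and 7. Over all microglia it measured 149, 140 and 133 CPM in sham and 106, 106 and 105 CPM in MCAO libraries. Within cluster 1 alone it measured 175, 162 and 154 CPM in sham and 444, 303 and 362 CPM in MCAO libraries, a rise of 1.17 ± 0.18 on the log2 scale (edgeR adjusted p = 1.46e-07), although only 80 MCAO cells lay there. Within cluster 7 it rose from 53.3, 116 and 88.0 CPM to 222, 226 and 223 CPM (log2 change 1.38 ± 0.17, edgeR adjusted p = 4.84e-08). Groups did not overlap in either cluster. Over the class without cluster 9 the change of Ddit4 was -0.02 (edgeR adjusted p = 0.739). The MCAO cells of clusters 10 and 9, which hold few sham cells, averaged 64.9 ± 9.8 and 40.9 ± 4.2 CPM.

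Clusters 1 and 7 were the microglial clusters with enough cells of both groups to be tested. In cluster 1 Ddit4 was the 1 gene called of 28 tested, beside 2.1% of all genes (0.485% higher and 1.61% lower). In cluster 7 there were 2 higher and 2 lower of 28, beside 8.14% (3.37% and 4.76%). Those in cluster 7 were Ddit4 and Aldoc, which rose, and Hif1a and Ankrd37, which fell. Hif1a measured 131, 91.6 and 151 CPM in the sham cells of cluster 7 and 77.1, 68.5 and 60.2 CPM in its MCAO cells, a log2 change of -0.85 ± 0.19 (edgeR adjusted p = 0.00138), opposite to its change over the class.

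**Figure D1:**
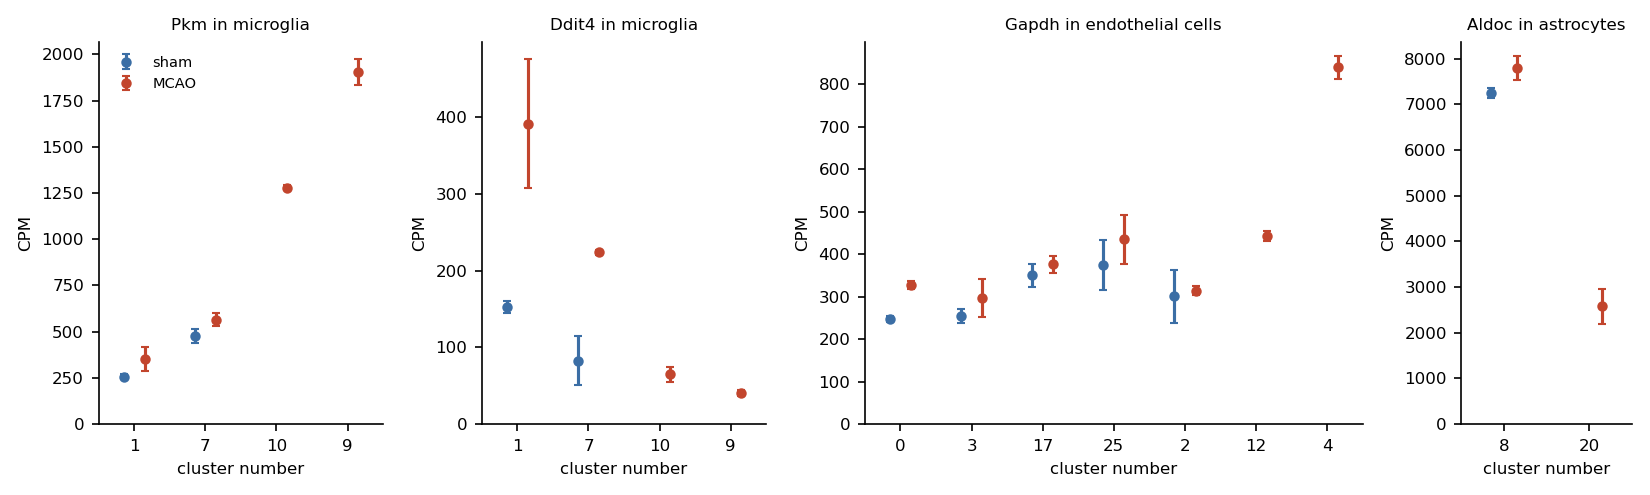
Mean level (points) and SD over 3 libraries (bars) in CPM of Pkm and Ddit4 by microglial cluster, Gapdh by endothelial cluster and Aldoc by astrocyte cluster, for sham and MCAO cells. Clusters without at least 20 cells in every library of a group have no point for that group. Pkm is highest in cluster 9 (1906 CPM) while Ddit4 is higher in MCAO than in sham cells of clusters 1 and 7 and lowest in cluster 9 (40.9 CPM); Aldoc is higher in MCAO than in sham cells of cluster 8, with cluster 20 at 2576 CPM.

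Endothelial cells, which line the vessels and carry glucose and oxygen to the tissue, raised Gapdh and the vessel peptide Adm most among the genes above 50 CPM and lowered Epas1. Of 31 genes tested 18 rose and 5 fell, beside 46.8% of all genes tested that were called (24.1% higher and 22.7% lower), with a median log2 change of 0.28 against -0.02 over all genes. Most sham cells lay in clusters 0 and 3 (8053 and 4041 cells) and most MCAO cells in clusters 2, 4 and 12 (5389, 3633 and 1348 cells).

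Gapdh measured 256, 267 and 249 CPM in sham and 533, 568 and 556 CPM in MCAO endothelial cells. The groups did not overlap, with a log2 change of 1.10 ± 0.04 (edgeR adjusted p = 3.35e-14). By cluster, as a description, Gapdh was 248 ± 7.6 CPM in sham cells of cluster 0, 314 ± 11.6 CPM in MCAO cells of cluster 2 and 839 ± 27.3 CPM in MCAO cells of cluster 4 (Ctla2a, Lrg1 and Lcn2 are among its leading genes). Within cluster 0 alone 4 of 31 genes rose and 2 fell, beside 5.49% of all genes (3.22% higher and 2.27% lower), and Gapdh rose by 0.41 ± 0.08 on the log2 scale (edgeR adjusted p = 0.00134). Gapdh was not called within clusters 2, 3, 17 and 25 (0.24 ± 0.17, 0.24 ± 0.12, 0.10 ± 0.14 and 0.28 ± 0.19). Over the class the other enzymes of lower glycolysis changed less: Pkm rose by 0.54 ± 0.04, Eno1 by 0.26 ± 0.05 and Pgam1 by 0.14 ± 0.04, and Pgk1 did not pass the threshold (0.28 ± 0.21).

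Adm, a peptide that widens vessels and tightens the endothelial barrier, was above 50 CPM in both groups. It measured 109, 93.7 and 108 CPM in sham and 220, 216 and 223 CPM in MCAO endothelial cells. All MCAO libraries lay above all sham libraries (log2 change 1.08 ± 0.05, edgeR adjusted p = 2.03e-12), and the thinned share of endothelial cells with an Adm UMI was 7.94% ± 0.48 in sham and 13.4% ± 0.23 in MCAO (SD, n = 3; 14.4% and 22.9% without thinning). In microglia, where Adm stood at 3.70% and 2.14% of its level in fibroblasts, the thinned shares were 0.585% and 0.959%. Within cluster 2, where 3 of 30 genes were called beside 2.09% of all genes (1.46% higher and 0.628% lower), Adm fell, from 344, 270 and 516 CPM in its 97 sham cells to 250, 223 and 226 CPM (log2 change -0.68 ± 0.17, edgeR adjusted p = 0.00684), against its rise over the class. Adm was not called within clusters 0, 3 and 17 (0.34 ± 0.23, -0.36 ± 0.34 and 0.75 ± 0.38), and in cluster 25 it was not tested.

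The HIF alpha subunits moved apart in endothelial cells. Epas1, which is best known from endothelium and was highest there of all classes in both groups (chr17:86753700-86833410, plus strand, GRCm38), fell. It measured 592, 589 and 584 CPM in sham and 456, 444 and 503 CPM in MCAO libraries. Groups did not overlap, and the log2 change was -0.33 ± 0.04 (edgeR adjusted p = 4.17e-06). Epas1 also fell within clusters 0 and 17, by 0.27 ± 0.07 and 0.76 ± 0.14 on the log2 scale. It was not called within clusters 2, 3 and 25 (0.23 ± 0.14, -0.11 ± 0.08 and -0.28 ± 0.16). In cluster 17, 3 of 22 genes were called, beside 4.34% of all genes (2% higher and 2.34% lower). Hif1a rose by 0.66 ± 0.06 over the class, from 54.1, 56.2 and 55.6 CPM to 92.4, 87.9 and 82.5 CPM. Within clusters 0, 2, 3 and 17 Hif1a was not called (0.07 ± 0.18, 1.09 ± 0.44, 0.11 ± 0.25 and 0.22 ± 0.26), and in cluster 25 it was not tested. The prolyl hydroxylase Egln1 did not pass (-0.04 ± 0.09).

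In upper glycolysis Pfkp rose by 1.20 ± 0.08, Hk1 by 0.43 ± 0.06 and Aldoa by 0.34 ± 0.04, Pfkl fell by 0.18 ± 0.05, and Gpi1, Pfkm and Tpi1 did not pass (-0.01 ± 0.04, 0.07 ± 0.11 and -0.03 ± 0.04, all log2). Hk2 rose by 1.5 ± 0.19, but its 4.10 and 11.7 CPM were 0.903% and 4.27% of the microglial levels. Ldha rose by 0.32 ± 0.04 and Pdk1 fell by 0.30 ± 0.12, while Ldhb did not pass (-0.08 ± 0.11) at 3.72% and 3.78% of its level in the choroid plexus. Bnip3l and Ndrg1 fell by 0.39 ± 0.04 and 0.20 ± 0.05, Ddit4 rose by 0.10 ± 0.04, and Bnip3 and Ankrd37 did not pass (-0.01 ± 0.06 and -0.08 ± 0.06). Within cluster 2 Ndrg1 rose, by 0.54 ± 0.15 on the log2 scale (edgeR adjusted p = 0.0334), against its fall over the class. It was not called within clusters 0, 3, 17 and 25. P4ha1 and P4ha2, subunits of the hydroxylase that matures collagen, rose by 0.63 ± 0.08 and 1.08 ± 0.10. The calls of Ddit4, Pdk1, Pfkfb4, Pgam1 and Aldoc in endothelial cells were each lost when 1 or another library was left out. Mif rose by 0.40 ± 0.04, and Pfkfb3 and Pfkfb4 by 0.46 ± 0.11 and 0.60 ± 0.21, the latter at 6.91% and 9.71% of its level in neutrophils.

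Aldoc rose in endothelial cells as well, from 34.3, 43.7 and 53.6 CPM to 102, 98.0 and 73.7 CPM without overlap (log2 change 1.05 ± 0.22, edgeR adjusted p = 0.0194). These levels were 0.617% and 1.45% of those in astrocytes. In the same sums 10 of 11 astrocyte markers rose, with medians of 0.937 to 1.22% of the astrocyte level in sham and 2.28 to 2.56% in MCAO libraries, summing to 170 to 199 and 324 to 364 CPM with none at 0. The part of astrocyte RNA in this rise was not tested. Markers of pericytes (9 of 10) and of monocyte-derived cells (10 of 11 tested) rose too. Spp1, which leads microglial cluster 9, stood at 0.272% and 5.18% of its highest class in endothelial cells, and at 0.225% and 7.63% in astrocytes.

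Astrocytes, the class with the highest Aldoc, raised Pfkp, Pkm and Ldha, and these rises held with and without cluster 20, a cluster that also carried microglial markers. Aldoc, Ldhb, Eno1 and Tpi1 were lower over the class, and none of these falls held without that cluster. Of 31 genes tested 7 rose and 6 fell, beside 27.2% of all genes tested that were called (14.7% higher and 12.5% lower), with a median log2 change of 0.12 against 0.00 over all genes. Pfkp, Pkm and Ldha rose by 0.60 ± 0.11, 0.49 ± 0.08 and 0.60 ± 0.08 on the log2 scale. Ldha measured 283, 327 and 302 CPM in sham and 460, 461 and 464 CPM in MCAO astrocytes, without overlap. Hif1a and Pfkfb3 rose by 0.42 ± 0.15 and 1.27 ± 0.26, and neither call held without cluster 20.

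Hk2 rose in astrocytes, from 13.4, 20.4 and 13.9 CPM to 49.3, 34.3 and 48.4 CPM (log2 change 1.48 ± 0.22), which was 3.47% and 15.9% of its microglial level. In the same sums the microglial markers stood at medians of 2.25 to 3.33% of the microglial level in sham and 11.1 to 15.9% in MCAO libraries, and their part in the rise of Hk2 was not tested. Adm rose by 1.78 ± 0.34, at 3.95% and 4.58% of its level in fibroblasts. Aldoc, at 7418, 7091 and 6995 CPM in sham and 6518, 6660 and 5854 CPM in MCAO libraries, fell by 0.18 ± 0.07 on the log2 scale (edgeR adjusted p = 0.0401). Ldhb fell by 0.40 ± 0.07, from 1453, 1369 and 1385 CPM to 1084, 1146 and 952 CPM. Neither of these 2 genes had overlapping groups. Tpi1, Eno1, Bnip3l and Mif fell by 0.35 ± 0.08, 0.26 ± 0.07, 0.42 ± 0.10 and 0.22 ± 0.08. The calls of Aldoc, Mif and Hif1a in astrocytes were each lost when 1 or another library was left out. The other 18 tested genes did not pass the threshold, among them Gapdh (-0.12 ± 0.07), Aldoa (-0.07 ± 0.07) and Pgk1 (-0.03 ± 0.17).

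The falls in astrocytes rested largely on cluster 20, which held 501 MCAO and 24 sham cells and in which 11 microglial markers were detected beside those of astrocytes. Its MCAO cells averaged 2576 ± 383 CPM of Aldoc, 513 ± 77.0 of Ldhb, 645 ± 98.7 of Eno1 and 90.4 ± 24.2 of Hk2 (SD, n = 3). Over the class 9 of 15 microglial markers rose, from 1139 to 1557 CPM in sum in sham to 2230 to 3240 CPM in MCAO libraries, with none at 0, and 8 of 9 tested oligodendrocyte markers rose. In cluster 8, the other astrocyte cluster (826 sham and 1363 MCAO cells), Aldoc rose by 0.23 ± 0.05 on the log2 scale, from 7206, 7007 and 6939 CPM to 8489.7, 8222 and 8135 CPM (edgeR adjusted p = 0.000328). The direction for Aldoc thus depended on whether cluster 20 was counted. Without it Ldhb, Eno1 and Tpi1 no longer passed (-0.03, -0.03 and -0.13). The rises of Hk2, Pfkfb3 and Hif1a did not pass either (0.63, 0.66 and 0.17, edgeR adjusted p = 0.111, 0.122 and 0.577).

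Within cluster 8, 9 of 31 genes were called, beside 14.5% of all genes (8.33% higher and 6.14% lower). Pkm and Ldha rose by 0.53 ± 0.07 and 0.68 ± 0.07, and Pfkp, Gpi1, Ddit4 and Adm rose by 0.67 ± 0.11, 0.35 ± 0.08, 0.38 ± 0.10 and 1.5 ± 0.37. Bnip3l and Mif fell by 0.32 ± 0.11 and 0.26 ± 0.08. Of the 14 genes of the immediate early and dissociation response, 13 rose over all astrocytes (median log2 change 1.42). Of all genes tested in astrocytes, 14.7% were higher and 12.5% lower. These astrocyte values include the cluster that also carried microglial markers, and its part in them was not tested. In microglia 8 of the response genes were higher and 4 lower, beside 29.8% and 31.7% of all genes. In endothelial cells 10 were higher and 1 lower, beside 24.1% and 22.7%. In astrocytes Junb, Egr1, Atf3, Hspa1a and Hspa1b rose by 1.91, 1.93, 2.25, 1.58 and 2.15, and in microglia Atf3 rose by 1.58. Their part in the changes described here was not tested.

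**Figure D2:**
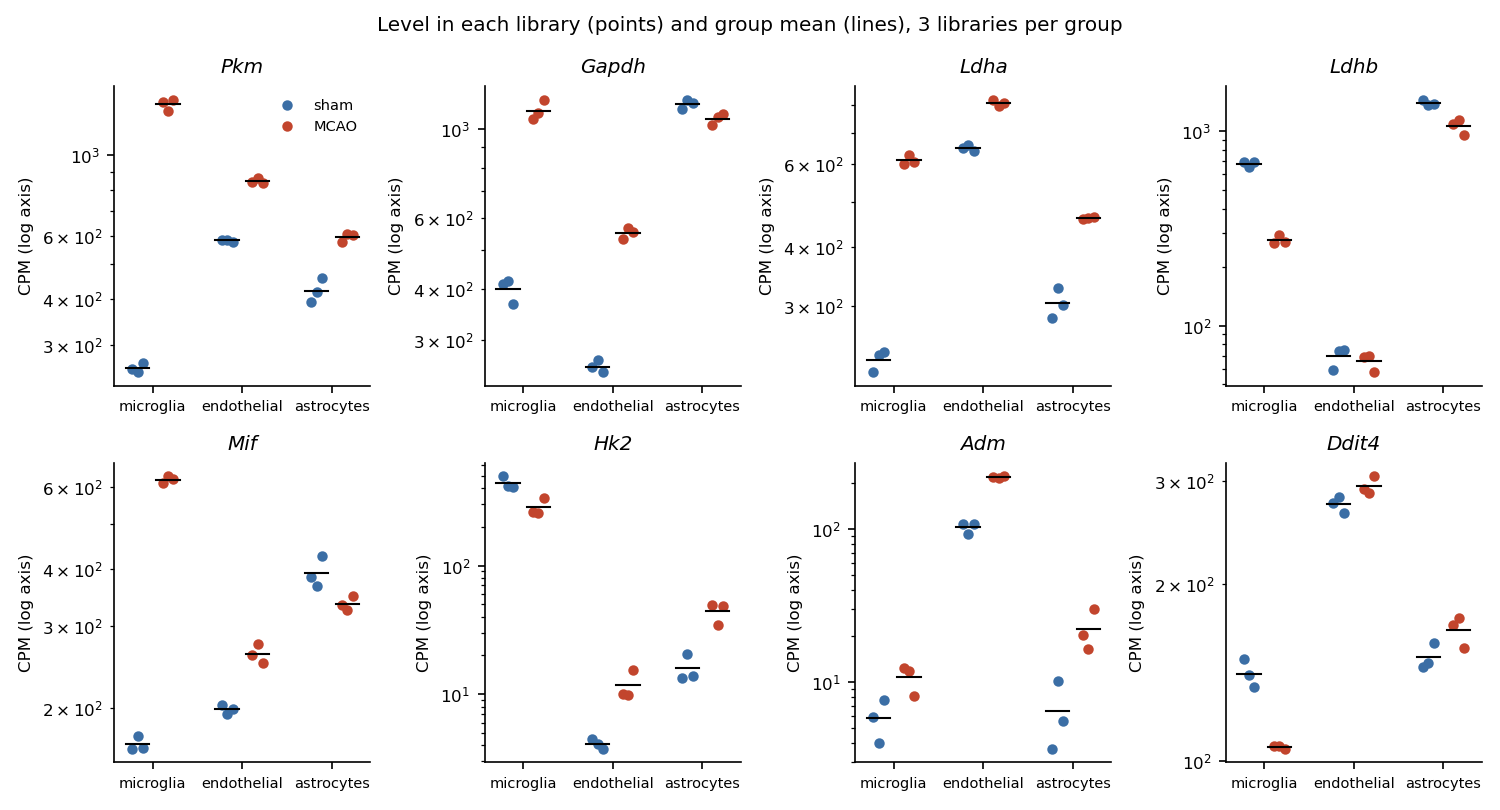
Level in CPM on a log axis of 8 genes in each sham and MCAO library (points) with group means (lines), in microglia, endothelial cells and astrocytes. Pkm, Gapdh, Ldha and Mif are higher in every MCAO than in every sham library of microglia and endothelial cells, while Ldhb, Hk2 and Ddit4 are lower in MCAO microglia.

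The change after MCAO differed between the classes for many of these genes when the difference itself was tested (group-by-class term in edgeR with library as a term). Between microglia and endothelial cells 22 of 31 genes differed (13 changed further upward in microglia and 9 further downward), beside 40.6% of all genes. Astrocytes and endothelial cells differed in 12 of 32 genes (3 and 9), beside 15.8%, and microglia and astrocytes in 19 of 32 (14 and 5), beside 30.6%.

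Monocyte-derived cells, recruited from the circulation, raised Hif1a together with most of the enzymes. In this class 20 of 30 genes tested rose and 2 fell, beside 30.6% of all genes (15.4% higher and 15.2% lower), with a median log2 change of 0.98 against 0.00. Hif1a measured 37.8, 37.7 and 33.7 CPM in sham and 249, 257 and 267 CPM in MCAO libraries, a log2 change of 2.83 ± 0.18 without overlap (edgeR adjusted p = 3.01e-12). This class had the highest Hif1a level after MCAO, at 245 ± 6.6 CPM before TMM scaling, followed by neutrophils at 131 ± 11.8 CPM. In sham brains smooth muscle cells were highest at 61.0 ± 7.0 CPM and fibroblasts next at 56.2 ± 13.7 CPM, which overlapped within their SD. Cluster 14 (led by Arg1) held 298 to 418 cells per MCAO library and 0 to 1 per sham library, and cluster 21 held 79 to 104 and 42 to 51.

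Within cluster 21 Hif1a rose by less, from 40.1, 41.2 and 36.9 CPM to 92.0, 75.0 and 97.2 CPM (log2 change 1.15 ± 0.28, edgeR adjusted p = 0.0051). There 6 of 22 genes were called, beside 14.7% of all genes (8.49% higher and 6.22% lower): Hif1a, Ddit4 and Aldoc rose, and Gapdh, Pgk1 and Pgam1 fell by 0.44 ± 0.11, 0.88 ± 0.20 and 0.58 ± 0.17. Over the whole class the same 3 enzymes did not fall: Gapdh and Pgam1 rose by 0.61 ± 0.08 and 0.47 ± 0.11, and Pgk1 was not called.

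Over all monocyte-derived cells Ldha measured 330, 417 and 401 CPM in sham and 1107, 1050 and 1229 CPM in MCAO libraries (log2 change 1.55 ± 0.11, edgeR adjusted p = 1.44e-11). Pfkl, the liver-type phosphofructokinase, measured 34.4, 23.2 and 33.7 CPM and 104, 111 and 109 CPM (1.83 ± 0.22), and Mif 230, 385 and 253 CPM and 939, 857 and 912 CPM (1.63 ± 0.13). None of the 3 genes had overlapping groups. Bnip3 and Ankrd37, which fell in microglia, rose here by 1.82 ± 0.27 and 1.79 ± 0.41, and Pdk1 by 1.58 ± 0.46. Bnip3l and Ndrg1 fell by 0.81 ± 0.13 and 0.84 ± 0.22, Ndrg1 at 9.91% and 6.77% of its level in oligodendrocytes. These class changes set sham cells of cluster 21 beside MCAO cells that lay mostly in cluster 14. Within cluster 21 Ldha, Pfkl and Mif were not called (log2 changes 0.35 ± 0.14, 0.66 ± 0.35 and -0.37 ± 0.27). Bnip3, Bnip3l and Ndrg1 were not called there either (0.39 ± 0.37, -0.34 ± 0.17 and -0.36 ± 0.29), and Ankrd37 and Pdk1 were not tested.

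In neutrophils 9 of 23 genes tested rose and 2 fell, beside 30% of all genes (15% higher and 15% lower). Hif1a measured 39.0, 41.7 and 42.9 CPM in sham and 136, 137 and 118 CPM in MCAO libraries (log2 change 1.66 ± 0.31), and Bnip3 29.2, 27.8 and 60.0 CPM and 193, 234 and 133 CPM (2.33 ± 0.34). Ddit4 measured 24.4, 20.8 and 25.7 CPM and 125, 125 and 90.6 CPM (2.24 ± 0.37), which was 7.15% and 38.7% of the highest class. Mif measured 43.8, 55.6 and 60.0 CPM and 338, 393 and 245 CPM (2.64 ± 0.28), or 5.92% and 38.0% of the highest class. In all 4 genes every MCAO library lay above every sham library. Egln3, the prolyl hydroxylase that is itself induced by HIF, had 0, 1 and 1 UMIs in sham and 18, 43 and 17 UMIs in MCAO neutrophils (0, 6.95 and 8.57 CPM against 51.2, 134 and 51.3 CPM). In monocyte-derived cells it had 0, 1 and 0 UMIs and 44, 36 and 27 UMIs. It passed the filter on low counts in these classes through the MCAO libraries alone, so that its place among the genes counted as higher there was set by the filter. Gpi1 and Gapdh fell in neutrophils, by 0.92 ± 0.16 and 0.82 ± 0.14. Sham libraries held 39 to 52 neutrophils each, so that these sham levels rest on few cells.

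Border macrophages, which live along vessels and meninges, raised Pkm most: 13 of 26 genes tested rose and 1 fell, beside 29.7% of all genes (16% higher and 13.6% lower). Pkm measured 191, 168 and 192 CPM in sham and 976, 1020 and 1007 CPM in MCAO libraries (log2 change 2.44 ± 0.09, edgeR adjusted p = 9.67e-24). Gapdh rose by 1.58 ± 0.09, Eno1 by 1.53 ± 0.10 and Mif by 1.66 ± 0.11, all without overlap between groups.

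Oligodendrocytes had 10 genes higher and 3 lower of 28, beside 22.7% of all genes (12.1% higher and 10.6% lower). Pericytes had 7 higher and 3 lower of 25, beside 14.2% (7.79% and 6.37%), and smooth muscle cells 10 and 0 of 29, beside 20.5% (10.9% and 9.62%). Choroid plexus epithelium had 5 and 2 of 30, beside 13% (6.8% and 6.16%), T or NK cells 3 and 0 of 18, beside 5.41% (2.18% and 3.22%), ependymal cells 1 and 1 of 22, beside 6.84% (3.89% and 2.95%), and fibroblasts 2 and 0 of 21, beside 4.54% (2.42% and 2.12%). Ddit4 rose in oligodendrocytes, pericytes and smooth muscle cells, by 0.57 ± 0.09, 1.25 ± 0.19 and 1.34 ± 0.24. In T or NK cells Pfkp measured 22.6, 51.7 and 55.2 CPM in sham and 115, 160 and 126 CPM in MCAO libraries, without overlap (1.57 ± 0.36, edgeR adjusted p = 0.016). In oligodendrocytes, where they were highest, Bnip3l and Ndrg1 fell by 0.48 ± 0.07 and 0.37 ± 0.08.

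Across the 13 classes, 13 of the 32 genes were called only upward, 4 only downward, 14 in both directions and 1, Egln1, in none of its 7 tested classes. These are 40.6%, 12.5%, 43.8% and 3.12%, beside 24.5%, 36.1%, 14.5% and 25% of all 14207 genes tested in at least 1 class. Genes tested in fewer classes have fewer chances of a call. Of the 17 genes that could be tested in every class, 35.3% were called only upward, 17.6% only downward and 47.1% in both directions, beside 37.1%, 22% and 37.3% of all 1711 such genes. Pfkp rose in 11 classes, Pkm and Ldha in 10 each, Aldoc in 9 and Eno1 in 8 of the 13, and Hif1a and Gapdh in 6. Those called only downward were Bnip3l (7 classes), Ldhb (4), Ndrg1 (4) and Epas1 (2). Hk2, Pfkfb4, Bnip3, Ddit4 and Ankrd37 were called lower in microglia and higher in 1 to 7 of the 7 to 13 classes in which each was tested. When the difference from astrocytes was tested, Hk2, Pfkfb4 and Ddit4 differed (edgeR adjusted p = 1.67e-12, 3.14e-06 and 2.59e-05), whereas Bnip3 and Ankrd37 did not pass (0.119 and 0.293). From endothelial cells Hk2, Pfkfb4 and Ddit4 differed as well (edgeR adjusted p = 1.43e-17, 3.71e-08 and 1.61e-08). So did Bnip3 and Ankrd37 (0.00152 and 0.00205), neither of which was called in endothelial cells alone. Aldoc rose in classes where it stood at 0.545 to 2.04% of its astrocyte level.

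**Figure D3:**
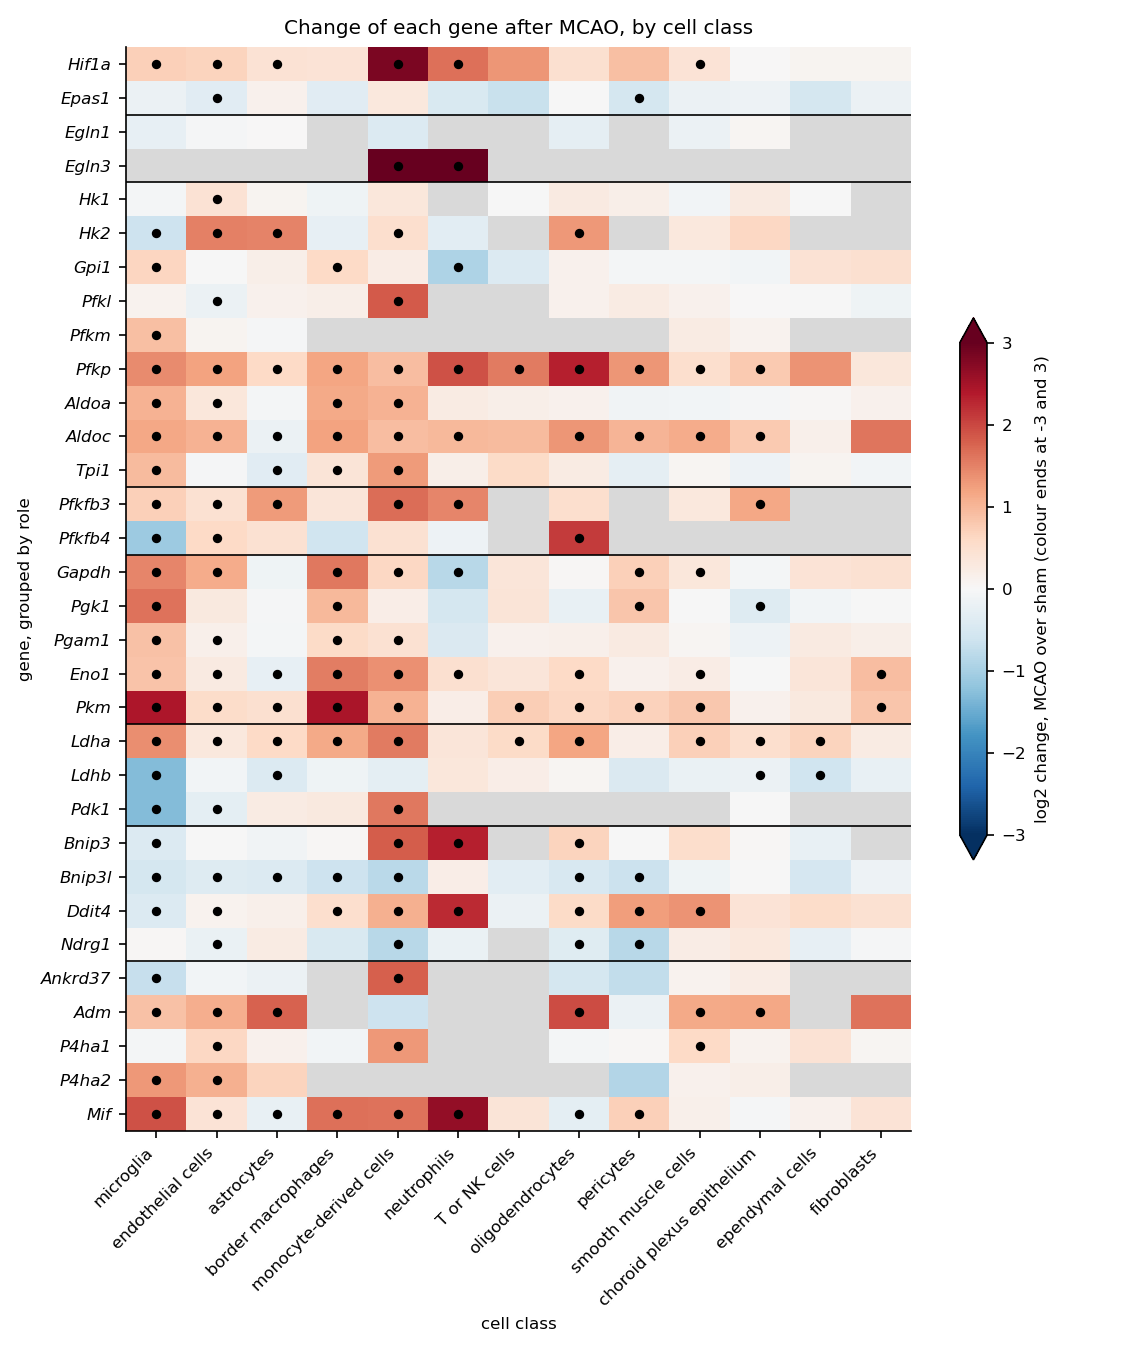
Log2 change of each of the 32 genes, MCAO over sham, in 13 cell classes; black dots mark an adjusted p under 0.05, grey cells were not tested, and horizontal lines separate the roles. Pfkp, Pkm and Ldha rise in 10 or 11 classes, Bnip3l falls in 7, and Hif1a changes most in monocyte-derived cells (2.83).

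The 16 enzymes from glucose to lactate were also summed, without a test. In microglia they took 3280, 3299 and 3329 CPM in the sham and 5518, 5537 and 5576 CPM in the MCAO libraries, a ratio of 1.68. The ratio was 2.22 in border macrophages, 1.82 in monocyte-derived cells and 1.28 in endothelial cells. In astrocytes the ratio was 0.893, with 14172, 13961 and 14009 CPM in sham and 12894, 12882 and 11871 CPM in MCAO libraries. The groups did not overlap in microglia or astrocytes. The astrocyte ratio rested on cluster 20: without it the sum was 14123 ± 57.9 CPM in sham and 14645 ± 398 CPM in MCAO libraries, a ratio of 1.04. The high astrocyte sum rested on Aldoc: without Aldoc it was 6853 ± 94.6 CPM in sham and 6359 ± 179 CPM in MCAO libraries, below the choroid plexus at 8129 ± 276 and 8168 ± 268 CPM. By role, the lower enzymes of microglia rose from 1165 ± 27.5 to 3205 ± 31.1 CPM in sum and the upper enzymes from 1183 ± 23.9 to 1496 ± 22.6 CPM (SD, n = 3).

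**Figure D4:**
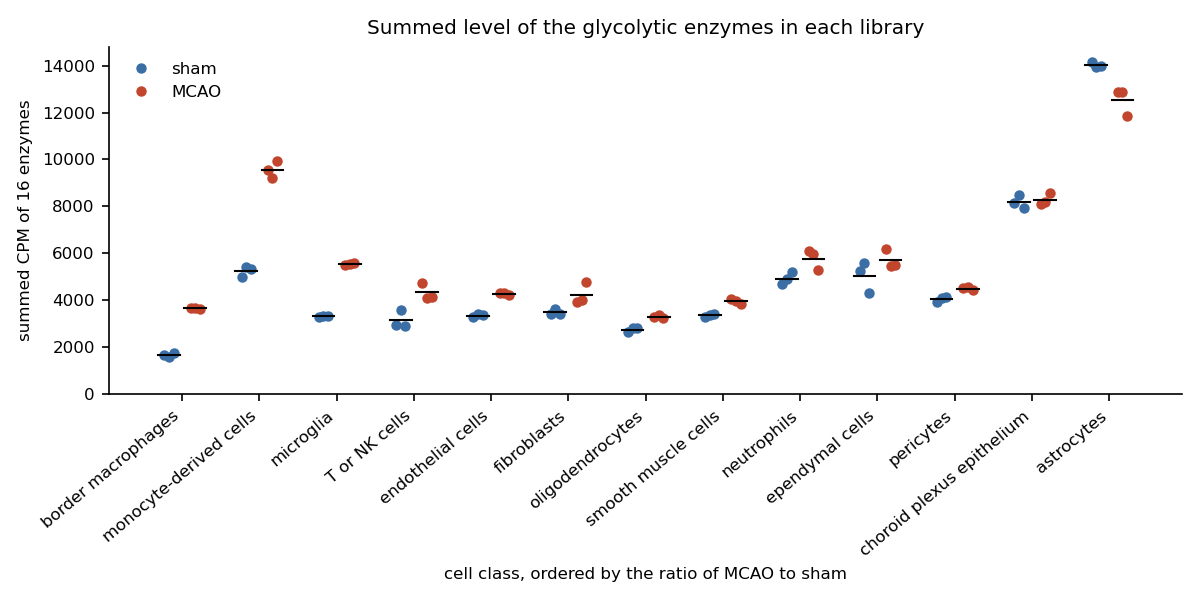
Summed CPM of the 16 glycolytic enzymes in each sham and MCAO library (points) with group means (lines), by cell class, ordered by the ratio of the means. Border macrophages have the highest ratio (2.22) and astrocytes the lowest (0.893), which becomes 1.04 without cluster 20; the high astrocyte sums include Aldoc, without which they are 6853 and 6359 CPM.

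The ratio of Ldha to Ldhb UMIs rose without overlap between groups in 10 of the 13 classes. It went from 6.35 ± 0.76 to 23.3 ± 4.7 in monocyte-derived cells, from 0.217 ± 0.022 to 0.438 ± 0.044 in astrocytes and from 9.46 ± 1.30 to 12.5 ± 1.4 in endothelial cells (SD, n = 3). Groups overlapped in T or NK cells, fibroblasts and neutrophils. UMIs of different genes are captured with different efficiency, so the ratio is compared between groups and not read as a ratio of proteins.

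**Figure D5:**
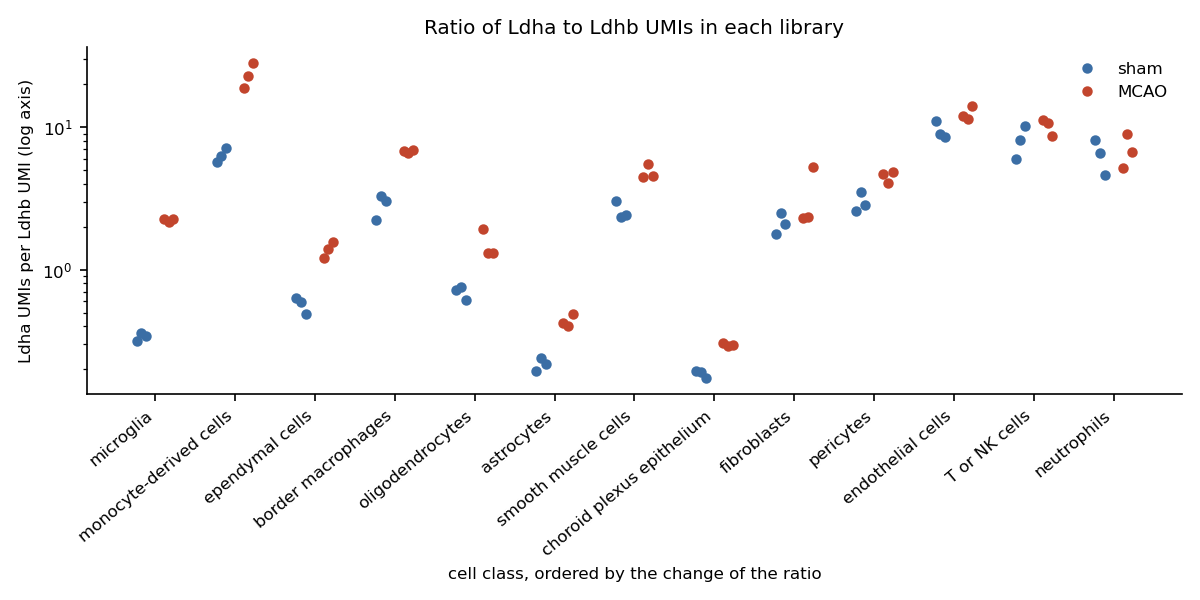
Ldha UMIs per Ldhb UMI in each sham and MCAO library (points, log axis) by cell class, ordered by the change of the ratio. Microglia move furthest, from 0.340 to 2.23 on average.

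Other genes of the same pathways were read from lists of known function, beside 29.8% of all genes higher and 31.7% lower in microglia, 24.1% and 22.7% in endothelial cells, and 14.7% and 12.5% in astrocytes. Counts in lists this small are given as descriptions. The astrocyte values in these lists include the cluster that also carried microglial markers, and its part in them was not tested. Of 8 genes of glucose and lactate transport, 5 rose and 3 fell in microglia, 2 rose and 3 fell of 6 tested in endothelial cells, and 3 rose and 1 fell of 5 in astrocytes. Slc2a5, the fructose transporter GLUT5 that marks resting microglia, measured 314, 295 and 294 CPM in sham and 48.4, 44.4 and 50.9 CPM in MCAO microglia, without overlap (log2 change -2.65 ± 0.06). Slc16a3, the lactate exporter MCT4, rose by 1.27 ± 0.08 in microglia, and Slc2a1, the glucose transporter GLUT1, rose by 0.51 in microglia, 0.36 in endothelial cells and 0.41 in astrocytes. Bsg, the chaperone of the lactate transporters, fell in all 3 classes, by 0.58, 0.70 and 0.50.

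Of the pentose phosphate pathway, which branches from glycolysis to make NADPH, 4 of 8 genes rose in microglia, 5 of 8 in endothelial cells and 2 of 7 in astrocytes, and none was called lower, beside the same shares over all genes. Among 13 or 14 tested genes of pyruvate entry into mitochondria, 4 rose and 2 fell in microglia, 2 and 2 in endothelial cells, and 0 and 3 in astrocytes. Of the glycogen genes 5 of 10, 2 of 12 and 1 of 11 rose and 0, 3 and 2 fell, in the same order of classes. Other glycolytic isoforms rose in 4 of 6, 2 of 6 and 0 of 3 and fell in 1, 1 and 0.

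Other HIF-induced genes did not move in 1 direction: 12 rose and 11 fell of 30 in microglia, 14 rose and 9 fell of 34 in endothelial cells, and 6 rose and 5 fell of 32 in astrocytes, the last near the 14.7% and 12.5% of all genes. Ppfia4 fell in microglia, where it was highest, from 230, 233 and 231 CPM to 58.3, 60.4 and 62.3 CPM (log2 change -1.94 ± 0.05). Hilpda, which holds back lipolysis at lipid droplets, measured 13.1, 14.0 and 15.2 CPM in sham and 53.3, 50.8 and 55.7 CPM in MCAO microglia (1.91 ± 0.10). Angptl4, an inhibitor of lipoprotein lipase, measured 72.2, 71.3 and 70.7 CPM in sham and 220, 222 and 235 CPM in MCAO endothelial cells (1.66 ± 0.05). None of these 3 genes had overlapping groups. Vegfa, the vessel growth factor and a textbook HIF target, fell over all astrocytes, where it was highest, by 0.71 ± 0.13. It went from 115, 110 and 113 CPM to 57.8, 67.7 and 81.7 CPM. These sums include the astrocyte cluster that also carried microglial markers, and the part of that cluster in the fall of Vegfa was not tested. Of the 11 tested genes of HIF regulation 5 rose and 3 fell in microglia and 7 rose and 2 fell in endothelial cells, and of 10 tested in astrocytes 1 rose and 2 fell. Of 8 tested genes of macrophage activation, 7 rose in microglia, among them Cd63, a lysosomal membrane protein, by 2.43 ± 0.05.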

How the data were processed

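Single-cell RNA was measured in 3 sham and 3 MCAO libraries. The authors deposited raw UMI counts per gene and barcode, made with Cell Ranger and STAR on mm10, per the submitters' processing notes, with no versions named. Barcodes under 300 genes (15) or over 10% mitochondrial UMIs (1298) and 4560 doublets, called per library against simulated pairs, were removed. Cells were clustered (2000 variable genes without the genes described here and the related lists, 30 components, Leiden resolution 1.0, seed 1; leidenalg 0.10.2) and named from markers. Clusters that missed the marker rules stayed unnamed and out of the classes. Counts were summed per library and class and tested in edgeR 4.0.16 (R 4.3.3; filterByExpr, TMM, robust quasi-likelihood, Benjamini-Hochberg over all genes tested, threshold 0.05), with summed UMIs of 4522903 to 8787163 per library in microglia, 9169391 to 11069181 in endothelial cells and 825353 to 2633774 in astrocytes. The test was tried on simulated counts first. SE is the log2 change over the root of F. DESeq2 1.42.0 was an alternative.

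The genes and lists were chosen with earlier results of these data known. Library values are given for genes past the threshold in microglia, endothelial cells or astrocytes with a log2 change of at least 1 and 50 CPM, in other classes 1.5 and 100 CPM, and in related lists 1.5 and 50 CPM. Other library values, and those of genes under these limits, were picked after the values were seen. Genes that led a cluster (Spp1, Lpl and others of the activation list) are not given as results. Gene coordinates are GENCODE vM21.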

Additional observations from a re-analysis of the deposited data

Results flagged for a closer look

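The change after MCAO differed between 2 classes, by edgeR's group-by-class term with Benjamini-Hochberg adjustment over all genes, for 25 pairs of a gene and a class comparison in which the difference was at least 1 on the log2 scale or the gene was called in opposite directions (11 pairs). All values are differences of log2 changes in the joint fit of both classes, which need not equal the difference of the separate changes.

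Microglia changed further upward than endothelial cells in Pkm (1.93), Mif (1.55), Pgk1 (1.4), Ldha (1.14) and Tpi1 (1.03). They changed further downward in Hk2 (-2.07), Pfkfb4 (-1.63), Ldhb (-1.17) and Ddit4 (-0.46), and of these Hk2, Pfkfb4 and Ddit4 were called lower in microglia and higher in endothelial cells. In endothelial cells the call of Ddit4 was lost in 8 of 15 settings and that of Pfkfb4 in 5, and in microglia Ddit4 turned to 0.67 with clusters 1 and 7 only. Hk2 stood below 5% of its microglial level in endothelial cells.

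Astrocytes changed further downward than endothelial cells in Aldoc (-1.21), Gapdh (-1.21), Mif (-0.61) and Eno1 (-0.5). Aldoc, Mif and Eno1 fell in astrocytes and rose in endothelial cells. In endothelial cells Aldoc stood at 0.617% (sham) and 1.45% (MCAO) of its astrocyte level. The call of Mif in astrocytes was lost in 8 of 15 settings. Aldoc and Eno1 in astrocytes changed with the treatment of cluster 20.

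Microglia changed further upward than astrocytes in Egln3 (2.32, from a gene that could be tested in neither class alone), Mif (2.11), Pkm (1.91), Pgk1 (1.62), Gapdh (1.58), Aldoc (1.31), Tpi1 (1.28), Eno1 (1.1) and Aldoa (1.09). They changed further downward in Hk2 (-2.12), Pfkfb4 (-1.56) and Pdk1 (-1.55). Mif, Aldoc, Tpi1 and Eno1 rose in microglia and fell in astrocytes, and Hk2 did the reverse. In microglia Aldoc stood at 0.597% (sham) and 1.41% (MCAO) of its astrocyte level. Without cluster 20 Aldoc rose in astrocytes (0.23) and Tpi1 (-0.13), Eno1 (-0.03) and Hk2 (0.63) were not called there, and without cluster 9 Hk2 was not called in microglia (-0.29).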

How the results depend on the processing

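In microglia 24 of 31 genes kept direction and side of the threshold under every alternative run, in endothelial cells 26 and in astrocytes 19. Leaving out each library in turn gave 25 to 26 genes called in microglia, 19 to 21 in endothelial cells, 10 to 12 in astrocytes and 25 to 26 over all cells. The calls of Ddit4, Pdk1, Pfkfb4, Aldoc and Pgam1 in endothelial cells, and of Aldoc, Hif1a and Mif in astrocytes, were each lost in 1 or more of these settings. Same-numbered libraries showed no sign of pairing (correlations -0.128 to 0.0781, beside -0.135 to 0.131 for libraries of different number). With 3 libraries per group these correlations cannot exclude it. With the replicate block 25, 20, 11 and 26 genes were called.

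In astrocytes 7 genes were called and 1 was lower with at most 5% mitochondrial UMIs, 3 were lower at resolution 0.5, and 2 without cluster 20. Aldoc reversed in these settings, to 0.16 (adjusted p = 0.067), 0.0799 (0.267) and 0.23 (0.000328), and to 0.0442 (0.584) with doublets kept. In microglia, with clusters 1 and 7 only, 4 genes were lower and Ddit4 reversed to 0.67 (adjusted p = 5.09e-10). The settings without cluster 20 or with clusters 1 and 7 only, and the enzyme sums without Aldoc or cluster 20, were chosen after seeing the data, and the former hold fewer cells; the cause of the other changes was not tested. Genes at a few percent of their highest class stand near the level of other classes' markers.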
